A study of Saccharomyces cerevisiae with 2 samples.

Results

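The histone genes of budding yeast were examined for sites of DNase I hypersensitivity (DHS), where chromatin is open to cutting by this enzyme, and for the short protected stretches within them, called footprints. The members were 10 listed genes, HTA1, HTB1, HTA2, HTB2, HHT1, HHF1, HHT2, HHF2, HTZ1 and HHO1, all found by symbol among the 6002 nuclear protein-coding genes of the R64 annotation. Each gene transcribes away from a neighbour and shares its upstream space with it, so the 10 genes gave 6 upstream spaces of 1415 such divergent spaces in the genome. For 4 of these spaces both neighbours are histone genes. HTZ1 shares its space with the phospholipase gene PLB3, and HHO1 shares its space with NAN1, a gene of ribosome biogenesis.

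The strains were G170D, which carries a temperature-sensitive allele of the chaperone Hsp90, and the wild type (WT), both labelled as the laboratory background BY4741. Both cultures were grown in YPD at 37 °C for 6 h, the G170D culture from an OD of 0.37 and the WT culture from an OD of 0.25, to an OD of 0.65 to 0.7. Growth over the 6 h thus differed between the strains and cannot be told apart from genotype. The gene that carries the allele, and whether the strain is 1 clone, are unknown here. There was 1 library per strain, so no replicate error and no test were possible, and every value below describes these 2 libraries. The G170D lists held 2875 DHS and 33585 footprints, and the WT lists held 3155 DHS and 45019 footprints. The number of reads behind them is unknown, and in all the listed DHS length of G170D differed from that of WT by -17.2%. A DHS covered all 1095 bp of LEU2 in both lists, although BY4741 is known to lack that gene. URA3 and HIS3, also known to be missing or disrupted there, held no DHS in either list, and MET17, missing too, held 67 bp in G170D and 90 bp in WT.

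Core histones H2A, H2B, H3 and H4 form the protein spool around which DNA is wound into nucleosomes. HTA1 and HTA2 encode H2A, HTB1 and HTB2 encode H2B, HHT1 and HHT2 encode H3, and HHF1 and HHF2 encode H4. The paired genes are expressed in S phase, when DNA is copied. The activator Spt10 binds upstream activating sequences in the shared spaces, and the HIR complex represses the pairs other than HTA2 and HTB2 outside S phase. HTZ1 encodes the variant H2A.Z, which sits in nucleosomes beside many promoters, and HHO1 encodes the linker histone H1.

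In outline, where DHS were listed at the histone genes they lay after coding ends and next to coding starts, and in WT also over 3 whole coding bodies. In G170D a DHS lay after 6 of the 10 ends and in 2 of the 6 spaces. In WT a DHS lay after 7 ends and in 4 spaces. The summed length was shorter in G170D in each kind of window. At HTB1, HTA2 and HHT2 a single WT DHS reached into all 3 kinds, so these sums are not separate observations. In the 6 upstream spaces together the DHS length was 606 bp in G170D and 1189 bp in WT, of 4808 bp in all. Over the 10 coding bodies it was 460 bp in G170D and 1424 bp in WT, of 4218 bp. In the 500 bp after the 10 coding ends it was 2602 bp in G170D and 3126 bp in WT, of 5000 bp. Footprints, counted where their midpoint lay in the window, numbered 13 in G170D and 19 in WT in the spaces. They numbered 5 in G170D and 19 in WT in the bodies, and 53 in G170D and 78 in WT after the ends. Listed footprints lay in DHS (100% in both strains), so these counts also depend on DHS length. Per kb of DHS there were 21.45 in G170D and 15.98 in WT in the spaces, the reverse order. In the bodies there were 10.87 in G170D and 13.34 in WT, and after the ends 20.37 in G170D and 24.95 in WT. The ratios of footprint counts, G170D to WT, were 0.684, 0.263 and 0.679 in the spaces, bodies and windows after ends. Over all such features they were 0.807, 0.691 and 0.757. The WT list was longer as a whole. With only its strongest footprints, as many as in G170D, the counts were 13 in G170D and 15 in WT in the spaces, 5 in G170D and 13 in WT in the bodies, and 53 in G170D and 56 in WT after the ends. The differences in DHS length, G170D relative to WT, were -49.0%, -67.7% and -16.8% in the spaces, bodies and windows after ends. Over all features of each kind they were -12.1%, -22.5% and -13.4%. After the histone coding ends the difference was -11.2% with windows of 300 bp and -28.0% with windows of 1000 bp.

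**Figure D1:**
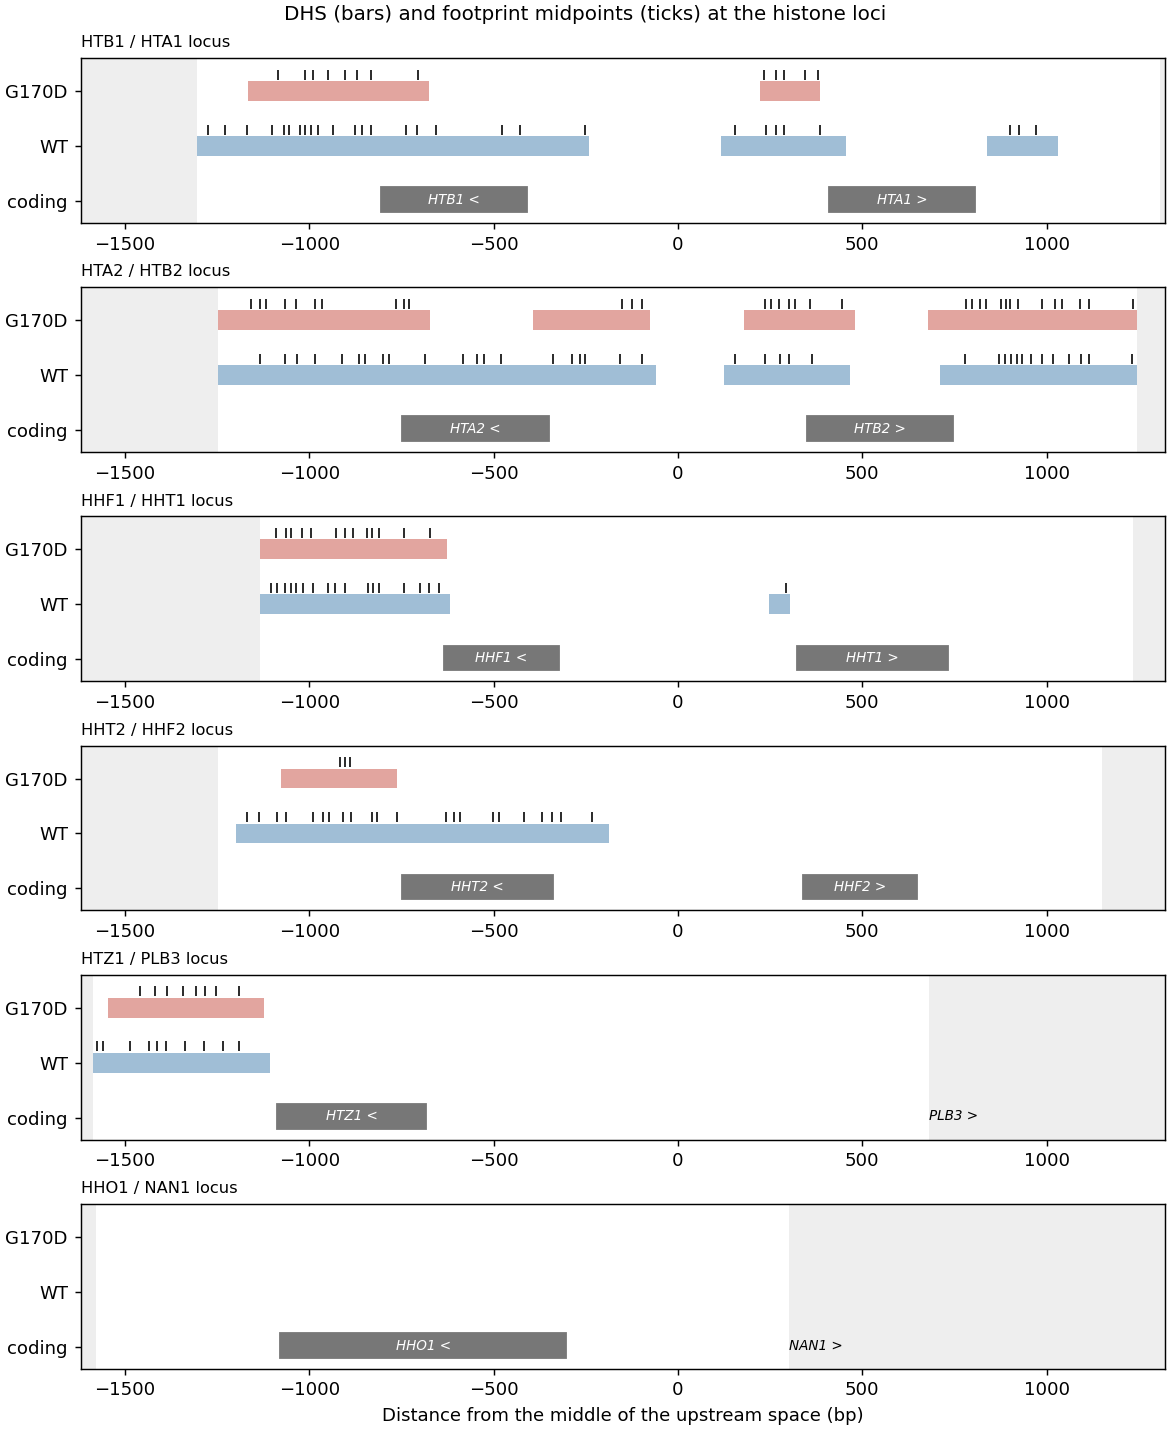
Maps of the 6 histone loci, with the distance from the middle of the upstream space on the x axis (bp). Red bars are DHS of G170D and blue bars DHS of WT, black ticks are footprint midpoints, grey boxes are coding regions with arrowheads for their direction, and shaded ends lie outside the windows examined. The middle of the 4 histone pair spaces is mostly free of DHS in both strains. Where bars are present they lie at coding starts and after coding ends, and in WT also over the whole bodies of HTB1, HTA2 and HHT2.

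The H2A and H2B genes held the most DHS in their upstream spaces. The HTB1 and HTA1 genes share a space of 817 bp (IV:914713-915529, sacCer3). DHS covered 162 bp of it in G170D, or 19.8%, and 460 bp in WT, or 56.3%. In G170D a single DHS lay there, at IV:915345-915506, on the HTA1 side, 24 to 185 bp upstream of the HTA1 coding start. In WT a DHS at IV:915239-915577 covered that side from 291 bp upstream into the HTA1 coding region. A further WT DHS, at IV:913743-914881, reached from beyond the HTB1 end over the whole HTB1 body to 169 bp upstream of its coding start. The HTA1 side was therefore hypersensitive in both strains, and the HTB1 side in WT alone.

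Footprints in this space numbered 5 in G170D and 6 in WT. On the HTA1 side 4 of the G170D footprints overlapped a WT footprint, and 1 of them, 8 bp long and 122.5 bp upstream of HTA1 by its midpoint, had the same edges in both lists. The strongest footprint of each strain here was the same protected stretch. In G170D it was 23 bp long, centred 144 bp upstream of HTA1, with a score of -6.98, and in WT it was 10 bp long, centred 142.5 bp upstream, with a score of -6.50. Footprint scores are the authors' own, with the most negative strongest, and serve here to rank footprints within a list. On the HTB1 side WT had 1 footprint, 156 bp upstream of the coding start, and G170D had none.

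The HTA2 and HTB2 genes share a space of 699 bp (II:235793-236491), which was the histone space with the most DHS in both strains. DHS covered 444 bp in G170D, or 63.5%, and 517 bp in WT, or 74.0%. In G170D the covered parts ran 274 bp upstream from the HTA2 coding start and 170 bp upstream from that of HTB2. In WT they ran 292 bp upstream from HTA2 and 225 bp from HTB2. Both coding starts lay in a DHS in both strains, and the difference did not pass the 2-fold limit described below. Footprints numbered 8 in G170D and 10 in WT, of which 5 in each list overlapped a footprint of the other. The strongest of each strain lay on the HTB2 side. In G170D it was 16 bp long, centred 74.5 bp upstream of HTB2, with a score of -6.97, and in WT it was 8 bp long, centred 48.5 bp upstream, with a score of -7.17. Each overlapped a footprint in the other list. On the HTA2 side WT had 4 footprints within 98 bp of the coding start that were not in the G170D list, although the G170D DHS covered that stretch.

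The H3 and H4 genes held less. The HHF1 and HHT1 genes share a space of 646 bp (II:255685-256330), in which G170D had no DHS and WT had 1 DHS of 59 bp (II:256254-256312), 19 to 77 bp upstream of HHT1, with 1 footprint. That DHS ranked low in the WT list, at place 2470 of 3155 by score. The HHT2 and HHF2 genes share a space of 676 bp (XIV:576051-576726). DHS covered 0 bp in G170D and 153 bp in WT, all of it next to HHT2 and part of a WT DHS of 1015 bp (XIV:575189-576203) that ran over the HHT2 body. WT had 2 footprints there. The H4 side of both spaces, next to HHF1 and HHF2, held no DHS in either strain. The HTZ1 space (XV:303984-305348, 1365 bp) and the HHO1 space (XVI:309605-310209, 605 bp) had neither DHS nor footprint in either strain.

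A difference was counted as lower or higher in G170D where the DHS lengths differed at least 2-fold and by at least 50 bp. By this rule 3 of the 6 histone spaces were lower in G170D, those of HTB1 and HTA1, HHF1 and HHT1, and HHT2 and HHF2, and 0 were higher. Over all 1415 divergent spaces 7.42% were lower and 6.78% higher. A space can be lower only if WT has at least 50 bp of DHS in it. Among divergent spaces with that length 31.2% were lower, and among the 4 histone pair spaces, which all had it, 3 were. The median difference was -66 bp over the histone spaces and 0 bp over all divergent spaces. Any DHS was listed in 2 of the 6 histone spaces in G170D and in 4 in WT, against 25.7% of all divergent spaces in G170D and 25.3% in WT. With 6 spaces these counts rest on single regions.

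**Figure D2:**
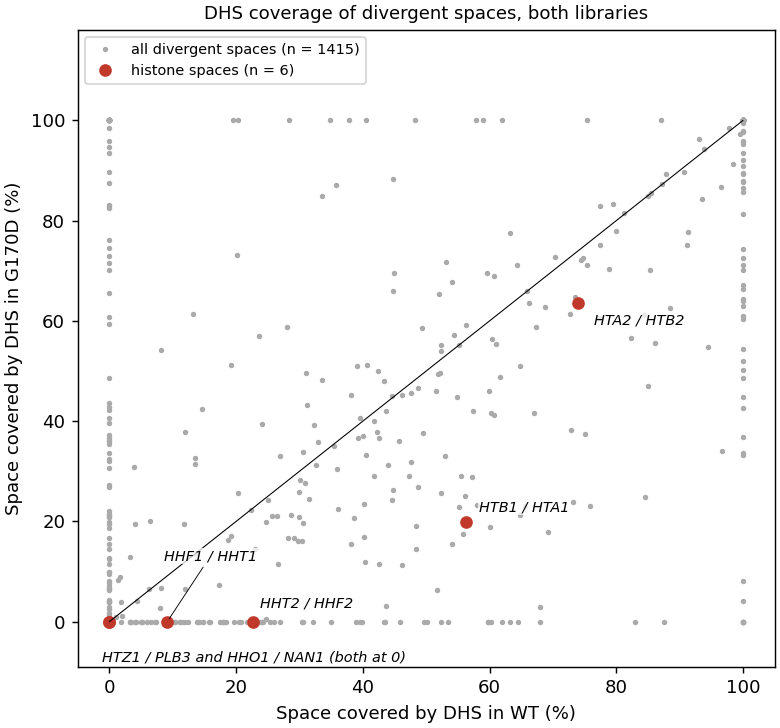
Share of each divergent space covered by DHS in WT (x axis, %) and in G170D (y axis, %), with 1 grey point for each of the 1415 spaces and red points for the 6 histone spaces. The line marks equal coverage. The HTA2 and HTB2 space lies close to the line at 63.5% in G170D and 74.0% in WT, the HTB1 and HTA1 space well below it, and the other 4 at 0% in G170D.

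The middle of the histone pair spaces carried little DHS. When each of the 4 pair spaces was cut into 3 equal parts, the middle parts were covered over 4.32% of their length in G170D and 8.23% in WT. The outer parts were covered over 29.9% in G170D and 58.8% in WT. Among 193 other divergent spaces of 646 to 816 bp, the middle parts were covered over 11.2% in G170D and 15.2% in WT, and the outer parts over 13.7% in G170D and 16.4% in WT. Pooled coverage of the other spaces was thus nearly level from edge to middle, and that of the histone pairs was not. Of the 193 other spaces, however, 56 held any DHS in G170D and 58 in WT. Among those, 18 in G170D and 12 in WT had no DHS in the middle part. The same held for 1 of the 2 histone pair spaces with DHS in G170D and 2 of the 4 in WT, so an empty middle was not particular to the histone pairs. The longest uncovered stretch was 632 bp in G170D and 357 bp in WT between HTB1 and HTA1, and 255 bp in G170D and 182 bp in WT between HTA2 and HTB2. Between HHF1 and HHT1 it was the whole 646 bp in G170D and 569 bp in WT, and between HHT2 and HHF2 the whole 676 bp in G170D and 523 bp in WT.

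Other divergent spaces with much the same coverage in both strains were sought among those within 25% of the length of each histone space. The measure was the summed difference in covered share over the 2 libraries. For HTB1 and HTA1 the nearest of 349 spaces were those of RTC4 and TEX1 (18.9% in G170D and 60.1% in WT), the meiosis genes SPO22 and HOP1 (23.3% in G170D and 58.0% in WT) and the ribosomal protein genes RPS16B and RPL13A (25.7% in G170D and 52.4% in WT). For HTA2 and HTB2 the nearest of 395 were MED2 and ATP16 (63.6% in G170D and 66.2% in WT), YEL023C and GEA2 (58.8% in G170D and 67.4% in WT) and NMD2 and YHR078W (70.3% in G170D and 78.9% in WT). For HHF1 and HHT1 the nearest of 413 were IMP1 and YIM1, RCN1 and APE2, and OST1 and PRE3, with 0% in G170D and 5.87% to 11.1% in WT. For HHT2 and HHF2 the nearest of 394 were CCL1 and ATH1, YCL049C and YCL048W-A, and ARN1 and EFM1, with 0% in G170D and 21.7% to 24.0% in WT. The HTZ1 space was tied with 57 of 107 spaces of like length that had no DHS in either strain, and the HHO1 space with 284 of 416, so no nearest ones are named.

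The coding bodies differed from one gene to the next. DHS covered HTB1 over 131 of 396 bp in G170D and over all 396 bp in WT, and it held 1 footprint in G170D and 5 in WT. HTA2 was covered over 120 of 399 bp in G170D, at its outer parts, and over all 399 bp in WT. It held 2 footprints in G170D and 5 in WT, and none overlapped between the strains. The WT footprints from II:235551 to II:235673 lay where G170D had no DHS and so could not overlap. In the whole lists, where the other strain had a DHS, 72.7% of G170D footprints and 61.2% of WT footprints overlapped one of the other strain. HHT2 was covered over 0 bp in G170D and over all 411 bp in WT, where it held 8 footprints. In these 3 genes the DHS length fell past the 2-fold limit in G170D. The strongest footprint of any histone body lay in HHT2 in WT, 22 bp long with a score of -7.42, centred 163.5 bp from the coding start.

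The remaining bodies did not pass the limit. HTB2 was the only histone gene with more DHS over its body in G170D, at 199 bp against 152 bp in WT, with 2 footprints in G170D and 1 in WT. HTA1 held 0 bp in G170D and 48 bp in WT, and HHF1 held 10 bp in G170D and 18 bp in WT. HHT1, HHF2, HTZ1 and HHO1 held none in either strain. In the divergent pairs with coverage over a whole body in WT it was 1 gene of the pair alone, HTB1 and not HTA1, HTA2 and not HTB2, HHT2 and not HHF2. The copies of each core histone gene encode identical or nearly identical proteins, and how reads that match both copies were treated is unknown here, so values within coding bodies are less certain than those between genes.

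Of the 10 bodies 3 were lower and 0 higher in G170D, against 14.6% lower and 6.01% higher among all 6002 bodies. Histone genes are short, from 312 to 777 bp against a median of 1200 bp, and among the 1373 bodies in that range of lengths 13.8% were lower. Any DHS was listed over 4 of the 10 bodies in G170D and 6 in WT. The shares were 40.2% in G170D and 44.9% in WT over all bodies, and 35.2% in G170D and 38.2% in WT over those of like length. The length covered was 10.9% in G170D and 33.8% in WT for the histone bodies, against 14.8% in G170D and 19.7% in WT for bodies of like length. The WT value rests on 3 genes covered from end to end.

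**Figure D3:**
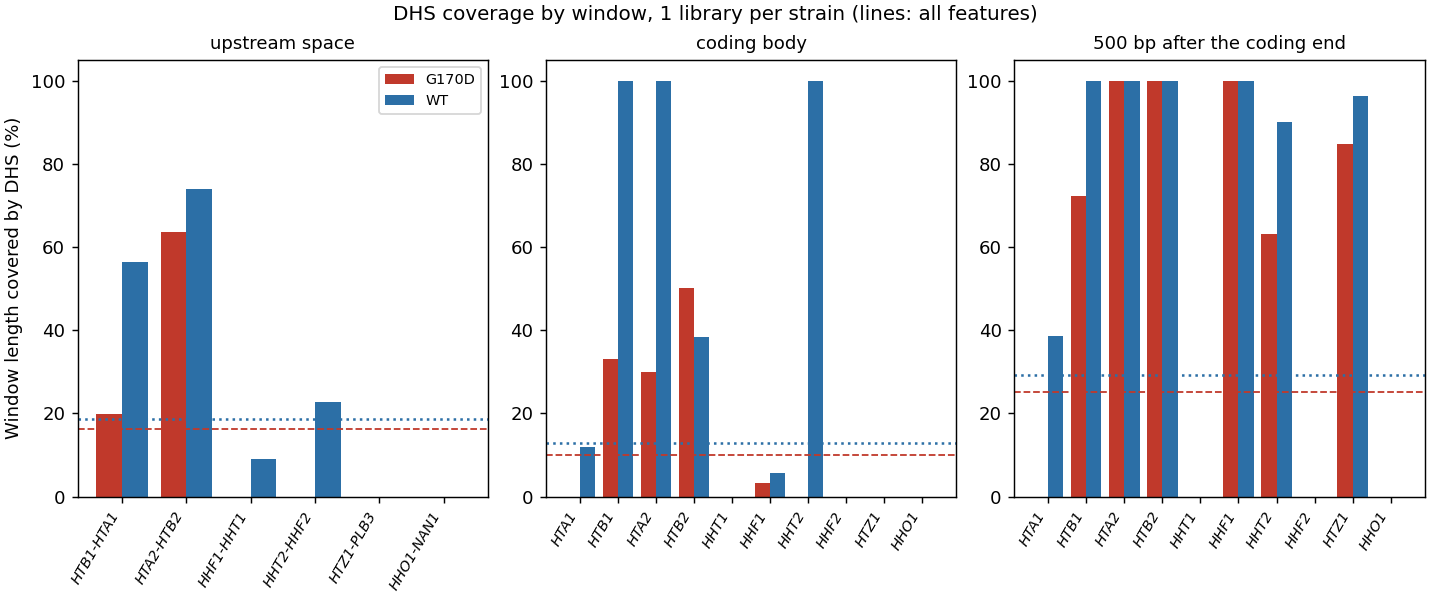
Share of each window covered by DHS (y axis, %) for the 6 upstream spaces, the 10 coding bodies and the 500 bp after the 10 coding ends, with G170D in red and WT in blue, 1 library each. The dashed red and dotted blue lines give the share over all features of the same kind in G170D and WT. Bars after coding ends stand at 63.2% to 100% in both strains for 6 genes, and HTB1, HTA2 and HHT2 show the largest gaps between strains over their bodies.

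The stretch after the coding end held the most DHS of the 3 kinds of window. All 500 bp after HTA2, HTB2 and HHF1 were covered in both strains. After HTB1 the length was 362 bp in G170D and 500 bp in WT, after HHT2 316 bp in G170D and 451 bp in WT, and after HTZ1 424 bp in G170D and 482 bp in WT. After HTA1 it was 0 bp in G170D and 193 bp in WT, where the DHS at IV:915959-916151 held 3 footprints and overlapped no G170D DHS. That was the only one of the 10 windows past the 2-fold limit. No DHS followed HHT1, HHF2 or HHO1 in either strain. The windows with 500 bp in both strains belonged to an H2A, an H2B and an H4 gene.

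A DHS was thus listed after 6 of the 10 coding ends in G170D and after 7 in WT, against 39.3% of all genes in G170D and 43.2% in WT. Lower windows were 1 of 10 and higher ones 0, against 11.7% lower and 5.16% higher among all genes, and the median difference was 0 bp in both sets. Coverage after all coding ends was 25.2% in G170D and 29.1% in WT, and after the histone ends 52.0% in G170D and 62.5% in WT. The next gene converges on 6 of the histone genes and lies in tandem for 4. The converging ones were covered over 55.9% in G170D and 65.0% in WT, against 26.9% in G170D and 31.4% in WT for all converging genes. The tandem ones were covered over 46.2% in G170D and 58.8% in WT, against 19.8% in G170D and 22.6% in WT for all tandem genes. Windows can reach over the neighbour, as after HTA2 (UTP20, 276 bp away), HTB2 (ECM15, 265 bp), HHT2 (SIW14, 288 bp) and HHF2 (KTR5, 166 bp). The tRNA gene nearest to any of the 6 loci lay 1881 bp away. Distances to centromeres were not measured. Their systematic names place HTB2 (YBL002W) on the left arm of chromosome II and HHF1 (YBR009C) on the right. A centromere therefore lies between these 2 genes, on the side where the DHS after HTB2 runs. Whether that DHS and its footprints belong to the centromere rather than to the HTB2 end was not tested.

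Of the footprints after coding ends, 4 of 53 in G170D and 4 of 78 in WT had the same edges in both lists. After HTB1 there were 7 in G170D and 14 in WT, and the strongest of each, 11 bp long and centred 206 bp after the coding end, had the same edges, with a score of -6.71 in G170D and -7.29 in WT. After HTZ1 there were 8 in G170D and 10 in WT. One footprint of 28 bp centred 103.5 bp after the HTZ1 end was identical in both lists and was the strongest of the window in WT, with a score of -6.05 in G170D and -7.05 in WT. After HTB2 there were 14 in G170D and 13 in WT. The strongest there in G170D was 28 bp long with a score of -8.41, centred 178.5 bp after the end, and was the strongest footprint of any histone window in that strain.

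After HHF1 there were 13 footprints in G170D and 17 in WT, and 12 of each list overlapped the other. The strongest in WT, 17 bp long and centred 267 bp after the end, had a score of -7.67 and was the strongest footprint of any histone window in WT. After HTA2 there were 8 in G170D and 9 in WT, and after HHT2 3 in G170D and 12 in WT. Over all histone windows 51 of 71 G170D footprints (71.8%, exact 95% interval 59.9 to 81.9) overlapped a WT footprint. Of the 83 WT footprints that lay in a G170D DHS, 52 (62.7%, 51.3 to 73.0) overlapped a G170D footprint. In the whole lists the shares, counted where the other strain had a DHS, were 72.7% for G170D footprints and 61.2% for WT footprints, inside the intervals of the histone genes. The intervals cover counting error only, and footprints of 1 DHS are not independent.

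**Figure D4:**
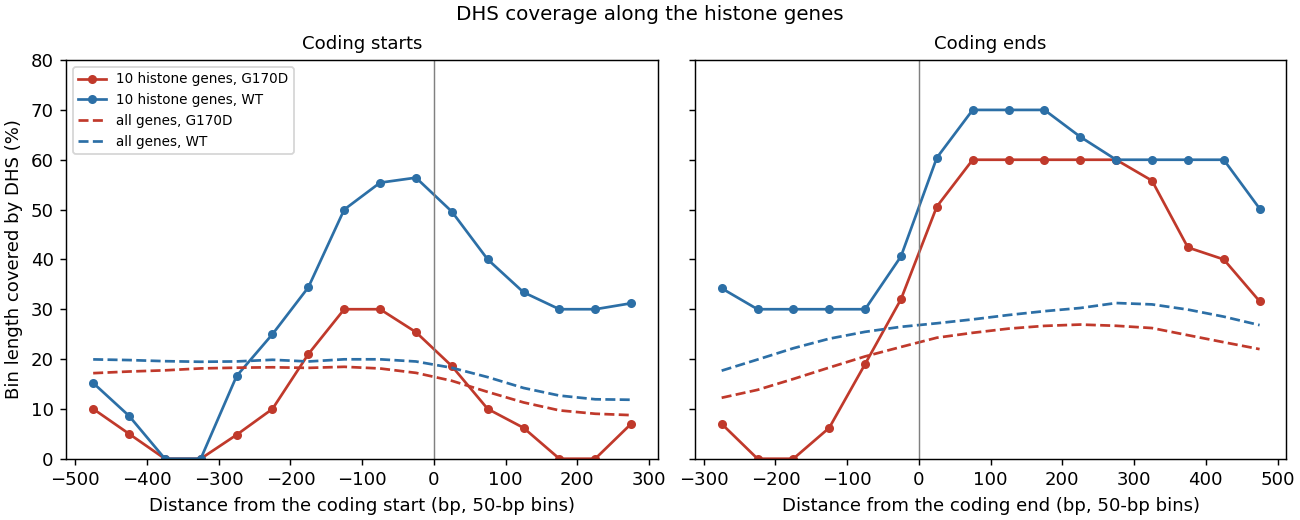
Share of each 50-bp bin covered by DHS (y axis, %) against the distance from the coding start and the coding end (x axes, bp), negative upstream. Solid lines with points are the 10 histone genes and dashed lines all 6002 genes, with G170D in red and WT in blue. In the histone genes coverage is 0% in both strains from 400 to 300 bp before the coding start and highest after the coding end, at 60% in G170D from 50 to 300 bp and at 70% in WT from 50 to 200 bp.

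Along the genes, coverage of the 10 members before the coding start was highest from 150 to 50 bp upstream in G170D, at 30%, and in the last 50 bp before the start in WT, at 56.4%. Over all genes the highest values near the start were 18.4% in G170D and 20.0% in WT. The members' coverage at 300 to 400 bp upstream was 0% in both strains, against 17.7% to 18.1% in G170D and 19.5% to 19.6% in WT over all genes. Inside the coding region, 150 to 250 bp after the start, coverage was 0% in G170D and 30% in WT, and that WT share came from the 3 genes covered throughout. After the coding end coverage stayed at its highest value, 60%, from 50 to 300 bp downstream in G170D, and at 70% from 50 to 200 bp in WT. With 10 genes 1 gene moves a bin by up to 10 percentage points.

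Single DHS at these loci numbered 9 in G170D and 10 in WT. Their median width was 424 bp in G170D and 955.5 bp in WT, against 426 bp in G170D and 375 bp in WT in the whole lists. These widths include parts over neighbouring genes, and a wide DHS is more likely to touch a locus, so the sets compared are not alike. All 9 of G170D overlapped a WT DHS, and 2 of WT overlapped no G170D DHS, those next to HHT1 and after HTA1. In the whole lists 17.7% of G170D DHS and 28.3% of WT DHS overlapped none of the other strain. At HTB1 and HHT2 the DHS of WT ran over the whole body into the upstream space. At HTB1 the edge on that side lay at 914447 in G170D, inside the coding body, and at 914881 in WT, 434 bp apart. At HHT2 it lay at 575626 in G170D, just beyond the coding end, and at 576203 in WT, 577 bp apart. At HTA2 the single WT DHS of 1241 bp (II:234844-236084) corresponded to 2 in G170D (II:234849-235470 and II:235750-236066) with the middle of the HTA2 body between them. The outer edges of that region differed by 5 and 18 bp between the strains.

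The DHS after HHF1 ended at 255382 in G170D and at 255390 in WT on chromosome II, and began 291 bp later in G170D. The DHS before HTB2 spanned II:236322-236622 in G170D and II:236267-236608 in WT. The WT DHS after HTZ1 spanned XV:302410-303560 and overlapped 2 G170D DHS, of which the one next to HTZ1 spanned XV:303121-303544, so that the edges facing HTZ1 lay 16 bp apart. The widest region at any locus began at the end of HTB2 and measured 2306 bp in G170D and 2551 bp in WT. It overlapped ECM15 and the trehalase gene NTH2, and how much of each gene it covered was not measured. It ran from HTB2 toward the centromere of chromosome II, so it cannot be read as a trait of the HTB2 end alone. By the authors' score, which ranks DHS within a list, this region stood at place 620 in G170D and 248 in WT. The DHS after HHF1 stood at place 395 in G170D and 318 in WT.

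Genes that regulate the histone genes or handle histone proteins were compared over the 500 bp upstream of their coding starts. All 36 listed names matched the annotation. A DHS reached this window for 10 of the 36 in G170D and 7 in WT, against 29.6% of all genes in G170D and 31.6% in WT. In the list 25 had none in either strain, among them SPT10 and SPT21, whose proteins activate the histone genes. In 3 the length rose in G170D past the 2-fold limit and in 1 it fell, against 5.65% higher and 8.96% lower among all 6002 genes. SWI4, the DNA-binding subunit of the G1/S factor SBF, held 320 bp and 3 footprints in G170D and none in WT. HIR3, a subunit of the HIR repressor, held 252 bp and 3 footprints in G170D and none in WT. TOM1, a ubiquitin ligase that acts on excess histones, held 230 bp in G170D and 96 bp in WT. Over the coding bodies HIR3 and TOM1 went the other way. The HIR3 body held 1583 bp in G170D and 3013 bp in WT, and the TOM1 body 1362 bp in G170D and 2329 bp in WT. The SWI4 body held 271 bp in G170D and 205 bp in WT.

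MSI1, a subunit of the chromatin assembly factor CAF-1, held 0 bp in G170D and 177 bp with 3 footprints in WT. Of the other HIR genes, HIR1 held 165 bp in G170D and 172 bp in WT, HIR2 held 380 bp in G170D and 235 bp in WT, and HPC2 held none. PSH1, a ubiquitin ligase for the centromeric H3 variant, and RRP6, a subunit of the nuclear exosome, were covered over all 500 bp in both strains. CSE4, which encodes that H3 variant, held 35 bp in G170D and 0 bp in WT. The mean over the list was 80.1 bp in G170D and 60.6 bp in WT, and over all genes 89.6 bp in G170D and 98.5 bp in WT. The median difference was 0 bp in the list and in all genes.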

How the data were processed

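For each library the authors deposited DHS and footprint regions with a score per region. The score formulas and the DHS caller with its threshold are unknown here. The submitters' processing notes name the build sacCer3 and the tools Bowtie 0.12.8 and FastQC. The footprint lists are named for dnase2tf. Depth is unknown, and lists called separately vary in length with it. Per the labels, nuclei were digested briefly with DNase I and fragments selected by size, which is given there in conflicting ways.

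Coordinates are counted from 1, taking the deposited starts as counted from 0. Genes came from the R64 gene table, the assembly of sacCer3, with strands from systematic names. In it 96.4% of coding lengths were multiples of 3, so windows start at coding starts and ends. DHS length was the overlap with each window, at least 1 bp, and footprints were counted by midpoint. A divergent space lay between neighbouring protein-coding genes with no annotated gene between. No test was made with 1 library per strain. The members, lists, windows and alternatives were chosen with earlier results of these data known. Named genes were the members, their neighbours, the 3 spaces most like each histone space, and listed regulators past the 2-fold limit or named by role. Other genes of the regulator list were named after their values were seen. The length calculation was tested on simulated data. A planned motif search was not run, since no sequence was used here. Python 3.11.15, numpy 2.4.6, pandas 2.3.3, scipy 1.17.1 and matplotlib 3.10.9 were used.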

Additional observations from a re-analysis of the deposited data

How the results depend on the processing

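The results were recomputed with the strongest WT regions only (as many as in G170D), without weak regions, with windows of 300 and 1000 bp after the coding end or up to the next gene, with 500 bp upstream of each coding start, with footprints counted by any overlap, and with a 1.5-fold limit or DHS in 1 strain only. Among the 52 recomputed sums and counts over the histone genes no summed difference turned round, and no count of genes or spaces past the limit moved by over 1.5 times. The difference in DHS length after the coding ends, G170D minus WT, was -524 bp, and it was -222 bp with 300 bp and -1298 bp with 1000 bp. The footprint differences over the spaces, bodies and ends were -6, -14 and -25, and with the strongest WT footprints only they were -2, -8 and -3. In the stronger part of each list, which holds fewer footprints by construction, the numbers were 5 in G170D and 10 in WT in the spaces, 2 in G170D and 9 in WT in the bodies, and 26 in G170D and 39 in WT after the ends. Single windows with small footprint differences turned round. G170D minus WT became 1 in the HTA2 and HTB2 space, 2 after HTA2 and 1 after HTZ1 with the strongest WT footprints. In the stronger part of each list it became -1 in the HTB2 body, -2 after HTB2 and 3 after HTZ1. It became -1 after HTB2 with 1000 bp and 1 after HTZ1 with 300 bp. The cause was not tested. Lower spaces numbered 2 in place of 3 without the DHS of lowest score or with DHS in 1 strain only. Lower bodies numbered 2 in place of 3 with DHS in 1 strain only, a count without the 50 bp minimum. These were HHT2 and HTA1. HTA1, with 0 bp in G170D and 48 bp in WT, was not among the 3 lower bodies of the main rule. No paired analysis was possible because each strain had 1 library. Depth is unknown, so regions missing from a list may be regions below its threshold.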
